A study of Mus musculus with 11 samples.

Results

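The 8 MHC class II genes described here are H2-Aa, H2-Ab1, H2-Eb1, H2-DMa, H2-DMb1, H2-Oa, H2-Ob and Ciita. They were taken by gene symbol from the 19505 symbols on the array, and each was read by 1 transcript cluster, the group of probes that reports 1 gene. The material was RNA of LSEC, the liver sinusoidal endothelial cells that line the hepatic capillaries with a fenestrated wall, read on Mouse Clariom S arrays. The KO group (5 arrays) came from Atg5lox/lox;VE-cadherin-Cre mice, in which the VE-cadherin promoter drives Cre to remove floxed Atg5. The WT group (6 arrays) came from Atg5lox/lox mice, which carry the same floxed alleles. Mice of both groups received a high fat diet for 2 weeks, starting at 8 weeks of age. How the LSEC were isolated is not given in the sources read here. Atg5 is needed to build autophagosomes, and the title of the study names inflammation and fibrosis as the outcomes it links to an endothelial autophagy defect. VE-cadherin is an endothelial cadherin, and its promoter is also known to be active in the embryonic endothelium that gives rise to blood cells. How far Cre acted in other cells of these preparations was not measured. The labels give neither the strain nor the H2 haplotype of the mice, and H2 alleles vary between strains.

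MHC class II molecules are pairs of an alpha and a beta chain that carry peptides from endocytosed protein to the cell surface, where CD4 T cells read them. Peptides are cut by lysosomal cathepsins and loaded in late endosomes with the help of the chaperone H2-DM, which H2-O restrains. The coactivator CIITA switches the class II genes on by joining a fixed set of factors on their promoters. Macrophages, dendritic cells and B cells are the classical class II cells. LSEC are known to carry class II as well and can present antigen to CD4 T cells, and autophagy is one of the routes by which material reaches class II compartments.

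The class II promoters share an X box, bound by the RFX complex, and a Y box, bound by NF-Y, and these are shown because they are the common docking site through which Ciita is known to act on the other members. RefSeq promoter windows (GRCm38.p6, 250 bases before to 50 after the start) were found for 6 of the 8 members. They were searched on both strands for the X-box core GNAAC followed after 10 to 40 bases by the Y-box core GATTGG, letters that were taken from the known boxes after the windows were at hand. The pair was present in 5 of these 6 genes, against 1.69% of all 32851 windows of 300 bases, and the cores cannot overlap under this spacing. Because the letters come from boxes that class II promoters are known to share, this count is a description and not a test. GATTGG alone was present in 16.1% of all windows and GNAAC alone in 84.8%. The stretches below run 5′ to 3′ along each gene, with both cores in capitals.
H2-Aa (chr17:34287861-34287912, minus strand): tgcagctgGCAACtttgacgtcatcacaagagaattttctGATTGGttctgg
H2-Eb1 (chr17:34305768-34305818, plus strand): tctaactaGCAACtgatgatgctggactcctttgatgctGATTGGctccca
H2-DMb1 (chr17:34153089-34153140, plus strand): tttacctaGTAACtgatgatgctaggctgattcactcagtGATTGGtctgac
H2-Oa (chr17:34092295-34092346, plus strand): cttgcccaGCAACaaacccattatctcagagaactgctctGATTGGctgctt
H2-Ob (chr17:34238810-34238858, plus strand): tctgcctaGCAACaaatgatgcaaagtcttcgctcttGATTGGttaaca
The cores were separated by 24 to 27 bases in all 5 genes, and the Y-box core began 44 to 62 bases before the start. H2-DMa had 2 windows and neither held the pair, which says only that these letters are not in these windows. The neighbouring gene H2-Eb2 held the pair with 26 bases between the cores, and the H2-DMb2 window did not. These matches describe letters and are not measurements of factor binding.

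**Figure D1:**
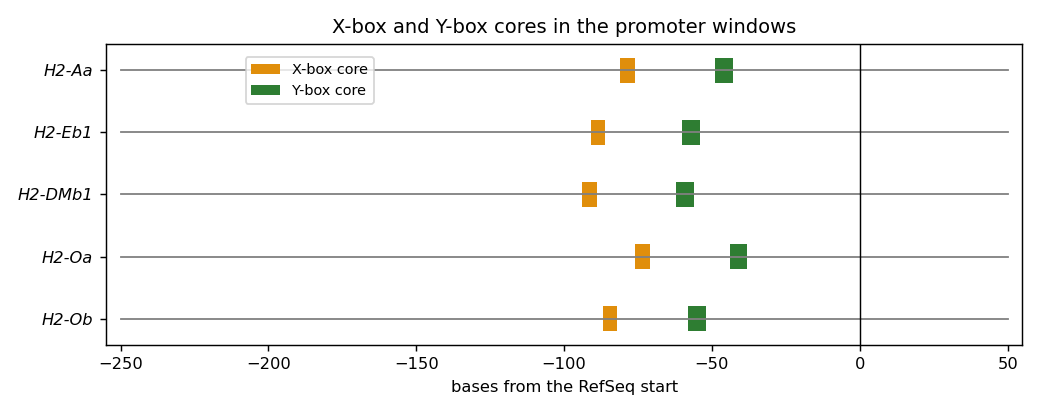
Positions of the X-box core and the Y-box core in the promoter windows of H2-Aa, H2-Eb1, H2-DMb1, H2-Oa and H2-Ob, in bases from the RefSeq start (vertical line at 0). The 2 cores keep a gap of 24 to 27 bases in every gene, with the Y-box core 44 to 62 bases before the start.

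Levels are log2 values that the authors normalized between arrays, and array medians lay between 6.61 and 6.74. Each array carries 23 antigenomic background rows, whose mean was 4.67 to 5.17 with an SD across rows of 2.16 to 2.53. All 8 members read above that mean on all 11 arrays. H2-Aa, H2-Ab1, H2-Eb1 and H2-DMb1 also read above the mean plus 1 SD on all 11 arrays, and H2-DMa did so on 3 of 5 KO and 1 of 6 WT arrays. H2-Oa, H2-Ob and Ciita did so on 0 of 11 arrays, and they are called near background below in this sense only. The mean plus 1 SD (6.83 to 7.69) lay above every array median, so most clusters of each array also read under it. In both genotypes together, 4 arrays stood apart by the mean of 5222 intron control rows, which was 5.75 to 5.96 on KO arrays 3 and 4 and WT arrays 1 and 6, against 5.05 to 5.38 on the other 7. The targeted gene Atg5 read 7.60 ± 0.17 in KO (SD, n = 5) and 7.50 ± 0.09 in WT (SD, n = 6), so its level did not separate the genotypes. Where its probes lie relative to the floxed part is not known here, and every direction below follows the labels.

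H2-Aa encodes the alpha chain of the H2-A molecule. It read 11.09, 11.82, 9.47, 10.60 and 10.23 on KO arrays 1 to 5, against a lowest value of 8.95, a median of 9.82 and a highest value of 10.84 on the WT arrays. KO arrays 1 and 2 lay above every WT array, while the other KO arrays lay within the WT range. The KO minus WT difference was 0.78 (SE 0.41, 95% interval -0.11 to 1.67), a 1.72-fold higher mean, with an exact permutation p = 0.145 and a limma adjusted p of 0.76. H2-Ab1, the beta chain that pairs with it, read 10.97, 11.93, 9.15, 10.43 and 10.11 on the KO arrays, against 8.55, 9.69 and 10.63 as lowest, median and highest WT value. Its difference was 0.82 (SE 0.47, interval -0.19 to 1.83), or 1.77-fold (exact permutation p = 0.173).

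H2-Eb1 encodes the beta chain of the H2-E molecule. It read 10.24, 11.07, 8.61, 9.57 and 9.30 on the KO arrays, against 8.15, 9.05 and 9.98 as lowest, median and highest WT value. The groups overlapped in the same way, with KO arrays 1 and 2 on top. The difference was 0.67 (SE 0.43, interval -0.25 to 1.59), a 1.59-fold higher mean (exact permutation p = 0.219). Within a genotype the chain genes spread more than the genotypes differed. H2-Ab1 spanned 6.87-fold over the KO arrays and 4.23-fold over the WT arrays, and H2-Aa spanned 5.10-fold and 3.71-fold.

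H2-DMa and H2-DMb1 encode the alpha and beta chain of H2-DM, the peptide-loading chaperone. H2-DMb1 had the largest difference of the 8 members. It read 9.65, 10.86, 7.78, 8.67 and 8.68 on the KO arrays, against 7.54, 8.02 and 9.31 as lowest, median and highest WT value. Again only KO arrays 1 and 2 lay above every WT array. The difference was 0.90 (SE 0.49, interval -0.15 to 1.95), or 1.86-fold (exact permutation p = 0.154). H2-DMa read 8.00, 9.21, 6.54, 7.0 and 7.06 on the KO arrays, against 6.08, 6.48 and 7.90 as lowest, median and highest WT value. Its difference was 0.83 (SE 0.46, interval -0.16 to 1.82), or 1.78-fold (exact permutation p = 0.156). H2-DMb1 has a close copy, H2-DMb2, and the level of either is uncertain because cross-reading by the probes was not tested. H2-DMb2 differed by 0.40 (SE 0.34).

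H2-Oa and H2-Ob encode the chains of H2-O, the inhibitor of H2-DM, which is known mainly from B cells and some dendritic cells. H2-Oa was the 1 member with a lower mean in KO. It read 6.25, 6.62, 5.13, 6.12 and 5.79 on the KO arrays, against 5.83, 6.18 and 6.33 as lowest, median and highest WT value. KO array 3 was lowest of all 11 arrays and KO array 2 highest. The difference was -0.15 (SE 0.22, interval -0.62 to 0.31, exact permutation p = 0.606), and without KO array 3 it was 0.06. H2-Ob read 6.39, 6.86, 6.36, 6.34 and 6.55 on the KO arrays, against 6.05, 6.39 and 6.53 as lowest, median and highest WT value. All 5 KO arrays lay above the WT mean of 6.31, but the KO and the WT median were both 6.39. The difference was only 0.19 (SE 0.13, interval -0.09 to 0.48, exact permutation p = 0.208).

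Ciita, the coactivator of the other members, lies on chromosome 16, away from the H2 genes on chromosome 17. It read 6.64, 6.89, 6.26, 6.26 and 6.27 on the KO arrays, against 6.06, 6.19 and 6.41 as lowest, median and highest WT value. KO arrays 1 and 2 were again above every WT array, and all 5 KO arrays lay above the WT mean. The difference was 0.25 (SE 0.14, interval -0.05 to 0.55), or 1.19-fold, with an exact permutation p = 0.106, the lowest of the 8 members.

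**Figure D2:**
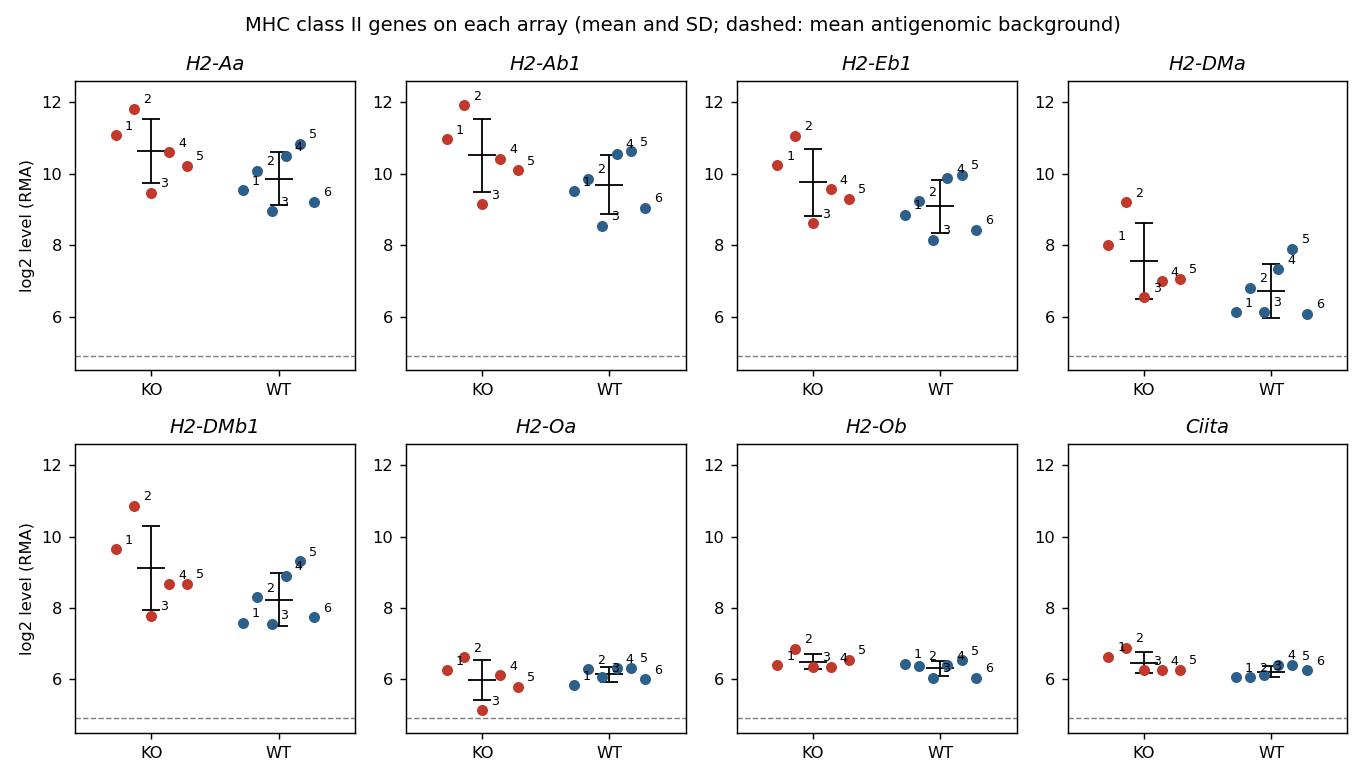
Log2 level of each class II gene on each array, with KO (red) left of WT (blue), array numbers beside the points, mean and SD as black bars and the mean antigenomic background as a dashed line. KO array 2 is the highest of all 11 arrays in each of the 8 panels, and the groups overlap in each. H2-Oa, H2-Ob and Ciita lie above the dashed line but under the background mean plus 1 SD on all arrays.

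As a set, 7 of the 8 members had a higher mean in KO and 1 a lower mean, while 46% of all 22206 clusters lay above 0. The median difference of the members was 0.725, against -0.02 over all clusters, and this median is a description of genes that vary together. By limma with Benjamini-Hochberg adjustment, 0 of 8 members passed an adjusted p of 0.05 (range 0.76 to 0.89), as did 0% of all clusters. At an unadjusted p of 0.05, 0 of 8 members passed, against 6.39% of all clusters. The study counted a gene as regulated from a 1.5-fold change upward if its uncorrected p was 0.05 or less. Against 1.03% of all clusters called in either direction, this rule called 0 of 8 members higher, against 0.671% of all clusters, and 0 lower, against 0.356%. In 0 of 8 members were the groups free of overlap, against 0.18% of clusters with all KO arrays above WT and 0.293% with all below. The intervals include both no change and differences above 1.5-fold for the 5 chain and chaperone genes. These 5 genes had pooled within-group SDs of 0.81 to 0.96, higher than in at least 99.0% of clusters, whose median SD was 0.24.

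The count of members called depended on single arrays and on the split by intron control signal. Without KO array 3, the lowest KO array for the 5 genes, 5 of 8 members met the study's rule as higher (H2-Aa 1.08, H2-Ab1 1.17, H2-Eb1 0.95, H2-DMa 1.09 and H2-DMb1 1.24), against 1.1% of all clusters. Without WT array 5, the highest WT array, 3 did (H2-Aa 0.98, H2-DMa 1.06 and H2-DMb1 1.11), against 1.01% of all clusters. Without KO array 2 the differences of these 5 genes were 0.34 to 0.49. With the intron control mean as a covariate 5 met the rule (0.73 to 0.97), against 0.878% of all clusters, with limma adjusted p from 0.43 to 0.47. Among the 7 arrays of low intron signal (3 KO and 4 WT) the 5 differences were 0.89 to 1.22 and H2-DMb1 met the rule, against 1.14% of all clusters. Among the 4 arrays of high intron signal (2 KO and 2 WT) they were 0.44 to 0.67 and H2-DMa met it, against 0.671% of all clusters. The differences of these 5 genes were above 0 within both sets of arrays.

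**Figure D3:**
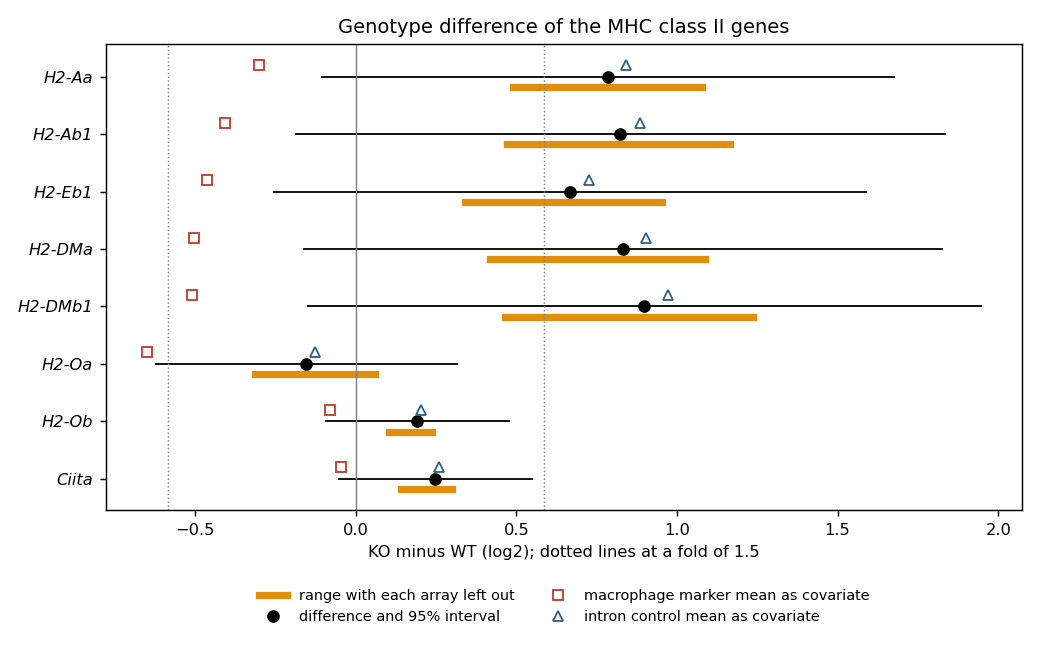
KO minus WT difference (log2) of each class II gene with its 95% interval (black), the range when each array is left out (orange), and the value with the macrophage marker mean (squares) or the intron control mean (triangles) as a covariate. Each interval includes 0, and with the macrophage mean all 8 values lie below 0, from -0.65 for H2-Oa to -0.05 for Ciita.

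The chain and chaperone genes varied almost as 1 unit from array to array. After subtraction of the group means, the 10 pairs among H2-Aa, H2-Ab1, H2-Eb1, H2-DMa and H2-DMb1 had Pearson r of 0.93 to 0.996 and Spearman rho of 0.94 to 1 over 11 arrays. The highest adjusted p among them was 0.00068 for r and 0.0016 for rho, by exact permutation within groups with adjustment over all 28 pairs. When the 2 most distant arrays were dropped, r came to 0.89 to 0.99. H2-Oa, H2-Ob and Ciita followed these 5 genes less closely, with r of 0.73 to 0.89 and rho of 0.70 to 0.90 over 15 pairs (exact permutation adjusted p from 0.0030 to 0.022 for r and from 0.0016 to 0.032 for rho). Without the 2 farthest arrays these 15 values of r were 0.37 to 0.86, and 6 of the 15 had an unadjusted exact permutation p of at most 0.05. Those 6 were H2-Oa with each of the 5 genes (r of 0.69 to 0.86) and H2-DMb1 with Ciita (0.77). H2-DMa and Ciita had r = 0.76 there and H2-Ab1 and H2-Ob 0.70 (unadjusted exact permutation p = 0.056 and 0.081). H2-DMb1 and H2-Ob came to 0.37. The H2-O pair itself had r = 0.48 and rho = 0.45 (adjusted exact permutation p = 0.176 and 0.171), and r = 0.10 without the 2 farthest arrays. By contrast the H2-DM pair had r = 0.99 and rho = 0.96 (adjusted exact permutation p = 0.00041 and 0.0013), and r = 0.98 without them.

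The genotype difference of H2-Oa was set against that of each other member. Relative to H2-Oa, the KO minus WT difference was 0.94 larger for H2-Aa, 0.98 for H2-Ab1, 0.82 for H2-Eb1, 0.98 for H2-DMa, 1.05 for H2-DMb1, 0.40 for Ciita and 0.35 for H2-Ob. The exact permutation p of these 7 comparisons ran from 0.011 to 0.032 except for H2-Ob, where it was 0.152. After adjustment over all 28 pairs of members 0 of the 7 passed, with an adjusted exact permutation p of 0.152 for 6 of them and 0.349 for H2-Ob. Because H2-Oa lay near background, a compressed difference and a smaller one cannot be told apart.

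The other genes of the pathway, taken from 6 lists that do not contain the members, numbered 30. Of these, 4 were higher by the study's rule, against 0.671% of all clusters, and 0 were lower, against 0.356%. Above 0 lay 27, against 46% of all clusters. None of the 30 passed the limma adjusted p (0.76 or above). Among 6 peptide processing genes, 2 met the rule, and the list median was 0.25. Ctss, the cathepsin most used for class II peptide loading in professional antigen-presenting cells, averaged 9.77 ± 0.85 in KO (SD, n = 5) and 8.76 ± 0.74 in WT (SD, n = 6), a difference of 1.01 (SE 0.40). Ifi30, the lysosomal thiol reductase that opens disulphide bonds for class II processing, averaged 10.08 ± 0.95 in KO and 9.09 ± 0.77 in WT, a difference of 0.995 (SE 0.435). The intramembrane protease Sppl2a differed by 0.36 (SE 0.21) and the asparaginyl endopeptidase Lgmn by 0.14 (SE 0.11).

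Among 8 promoter binding factors, the RFX and NF-Y subunits with Creb1 and Atf1, 0 met the rule, the median was 0.08 and the differences ran from -0.01 to 0.25. Among 9 factors upstream of Ciita 1 met the rule and the median was 0.17. This was Spi1, the myeloid and B cell transcription factor PU.1, at 0.80 (SE 0.33). Ifngr1, the ligand-binding chain of the interferon gamma receptor, read 9.10 ± 0.15 in KO (SD, n = 5) and 8.855 ± 0.068 in WT (SD, n = 6). All 5 KO arrays lay above all 6 WT arrays, so the exact permutation p was 0.0022, the smallest that 462 splits can give, but the difference of 0.25 (SE 0.10) was under 1.5-fold. Of 3 surface turnover genes Cd83, which is known to protect class II molecules from ubiquitination, met the rule at 0.63 (SE 0.27). Of the other class II region genes (2 measured) and the T cell receptors of class II, Cd4 and Lag3, 0 met the rule.

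Each of the 4 calls rested on several arrays. Ctss no longer met the rule without any 1 of 6 arrays (KO arrays 1 and 2 and WT arrays 1, 2, 3 and 6), with differences of 0.70 to 0.94. Spi1 lost the call without any of the same 6 arrays (0.56 to 0.77), as did Cd83 (0.35 to 0.65). Ifi30 lost it without any of these or without KO array 5 (0.681 to 1.004).

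Markers of other cell types were read on the same arrays. The 13 sinusoidal endothelial markers averaged 12.11 to 12.41 on the KO arrays and 12.08 to 12.37 on the WT arrays. Of these 13, 0 were called, against 1.03% of all clusters in either direction. Cdh5, the VE-cadherin gene, differed by 0.01 (SE 0.09). Of 15 measured Kupffer cell and macrophage markers, 15 lay above 0, against 46% of all clusters. By the rule 14 of these markers were higher, against 0.671% of all clusters, and 0 of the 15 passed the limma adjusted p. Their mean was 7.48 to 10.05 on the KO arrays and 6.90 to 8.29 on the WT arrays, with KO array 2 and WT array 5 highest in their groups. The same arrays were highest for 7 of the 8 class II genes, and for Ciita WT array 4 (6.41) read just above WT array 5 (6.4). The complement receptor Vsig4 of Kupffer cells differed by 1.65 (SE 0.40). None of the 15 was below the background mean on all arrays. In these bulk samples, more cells of a type and more RNA per cell cannot be told apart.

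None of the remaining immune markers was called by the rule. In either direction 1.03% of all clusters were called, so 0 calls in lists this short are near that share. The 10 B cell markers averaged 6.11 to 6.27 in KO and 6.13 to 6.21 in WT with a median difference of -0.05, and the 10 dendritic cell markers averaged 6.18 to 6.4 in KO and 6.25 to 6.49 in WT with a median of -0.09. Of these 20 markers, 0 were called in either direction, against 1.03% of all clusters, and 0 lay below the background mean on all arrays. Both list means stayed under the background mean plus 1 SD (6.83 to 7.69) on all arrays, as H2-Oa, H2-Ob and Ciita did. The 5 monocyte markers (6.21 to 7.11 in KO, 5.96 to 6.92 in WT) and 6 T cell markers (5.43 to 6.18 in KO, 5.24 to 5.88 in WT) had 0 calls, and the monocyte marker Ccr2 was below the background mean on all 11 arrays. The 5 stellate cell markers averaged 8.43 to 9.46 in KO and 8.16 to 9.10 in WT, with a median difference of 0.39 and 0 calls. Hepatocyte markers were lower in KO by the rule in 7 of 11 (8.11 to 9.78 in KO, 9.16 to 10.64 in WT). This stands against 0.356% of all clusters, and 0 of the 11 passed the limma adjusted p.

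Within the groups, the class II genes varied with the macrophage markers. Pearson r with the macrophage mean was 0.77 to 0.92 over 11 arrays and Spearman rho 0.66 to 0.91. By exact permutation within groups, adjusted over 72 relations, 6 of 8 members passed for r (adjusted p from 0.029 to 0.105) and 2 of 8 for rho (adjusted p from 0.026 to 0.087). H2-DMa and H2-DMb1 had the highest r (0.92 each, adjusted exact permutation p = 0.029). Without KO array 2 and WT array 5, r was 0.48 to 0.78 and 4 of 8 had an unadjusted exact permutation p of at most 0.05, namely H2-Ab1, H2-Eb1, H2-DMa and H2-DMb1. H2-Aa and H2-Oa kept a similar r (0.67 each, unadjusted exact permutation p = 0.060 and 0.111), and H2-Ob (0.48) and Ciita (0.51) a smaller one. Differences in r between the lists were not tested.

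For B cell markers r was 0.23 to 0.66 and rho 0.16 to 0.54 (lowest adjusted exact permutation p = 0.127 and 0.161). For dendritic cell markers r was 0.25 to 0.61 and rho 0.32 to 0.72 (lowest adjusted exact permutation p = 0.138 and 0.087). For monocyte markers r was 0.30 to 0.68 and rho 0.41 to 0.81 (lowest adjusted exact permutation p = 0.115 and 0.074). For sinusoidal endothelial markers r was 0.34 to 0.72 and rho 0.31 to 0.73 (0.089 and 0.078), for stellate cell markers 0.41 to 0.74 and 0.39 to 0.71 (0.084 and 0.087), and for T cell markers 0.27 to 0.45 and 0.12 to 0.37 (0.262 and 0.366). Thus 0 of 8 members passed for these 6 lists. Without the 2 arrays farthest for each list, r was 0.33 to 0.72 for monocytes, 0.55 to 0.76 for endothelium and 0.16 to 0.75 for stellate cells, overlapping the macrophage values. In that set of 9 arrays, an unadjusted exact permutation p of at most 0.05 was reached by 5 of 8 members for monocytes, 2 for endothelium, 1 for stellate cells, 1 for dendritic cells and 0 for B and T cells. For hepatocyte markers r was 0.36 to 0.82 and rho 0.41 to 0.88. Among these relations only that of H2-Ob passed (r = 0.82, rho = 0.88, adjusted exact permutation p = 0.042 and 0.026). Without KO array 2 and WT array 5, the 2 farthest, r was -0.26 to 0.57, with 0.57 for H2-Ob. There 0 of 8 members had an unadjusted exact permutation p of at most 0.05. The intron control mean ran against all 8 members, with r of -0.74 to -0.51 (lowest adjusted exact permutation p = 0.068). Its rho was -0.88 to -0.62, of which H2-DMa passed (adjusted exact permutation p = 0.026). Without the 2 farthest arrays r was -0.76 to -0.65. There 7 of 8 members had an unadjusted exact permutation p of at most 0.05, more than for any marker list.

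**Figure D4:**
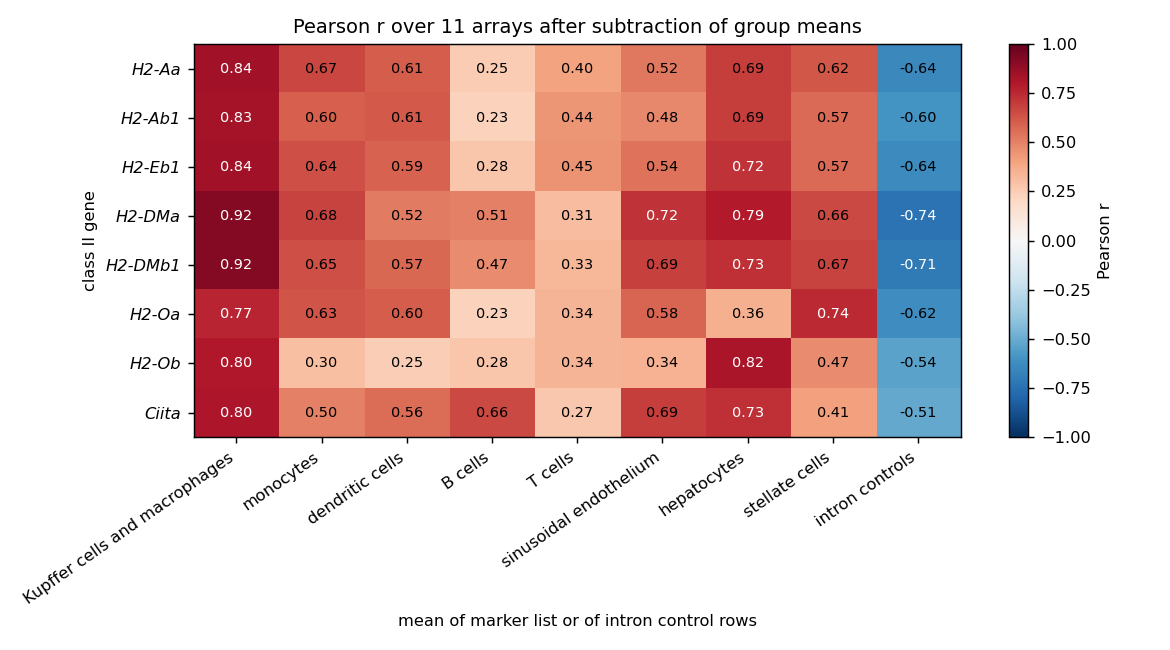
Pearson r of each class II gene (rows) with each marker list mean or the intron control mean (columns), over 11 arrays after subtraction of the group means. The macrophage column holds 0.77 to 0.92, the hepatocyte column 0.36 to 0.82, the endothelial column 0.34 to 0.72 and the B cell column 0.23 to 0.66.

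With the macrophage mean as a covariate, the difference was -0.30 for H2-Aa, -0.41 for H2-Ab1, -0.46 for H2-Eb1, -0.50 for H2-DMa and -0.51 for H2-DMb1. Ciita came to -0.05, H2-Ob to -0.08 and H2-Oa to -0.65, the last meeting the study's rule as lower, against 2.31% of all clusters, with a limma adjusted p of 0.23. The 4 pathway calls also turned, to -0.18 for Ctss, -0.28 for Ifi30, -0.12 for Spi1 and -0.12 for Cd83. Ifngr1 came to 0.09. With the B cell mean as a covariate the differences of the 5 chain and chaperone genes were 0.50 to 0.67, and with the dendritic cell mean 0.95 to 1.22, where 5 members met the rule, against 1.14% of all clusters. What part macrophage RNA has in the class II level was not tested beyond these values.

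**Figure D5:**
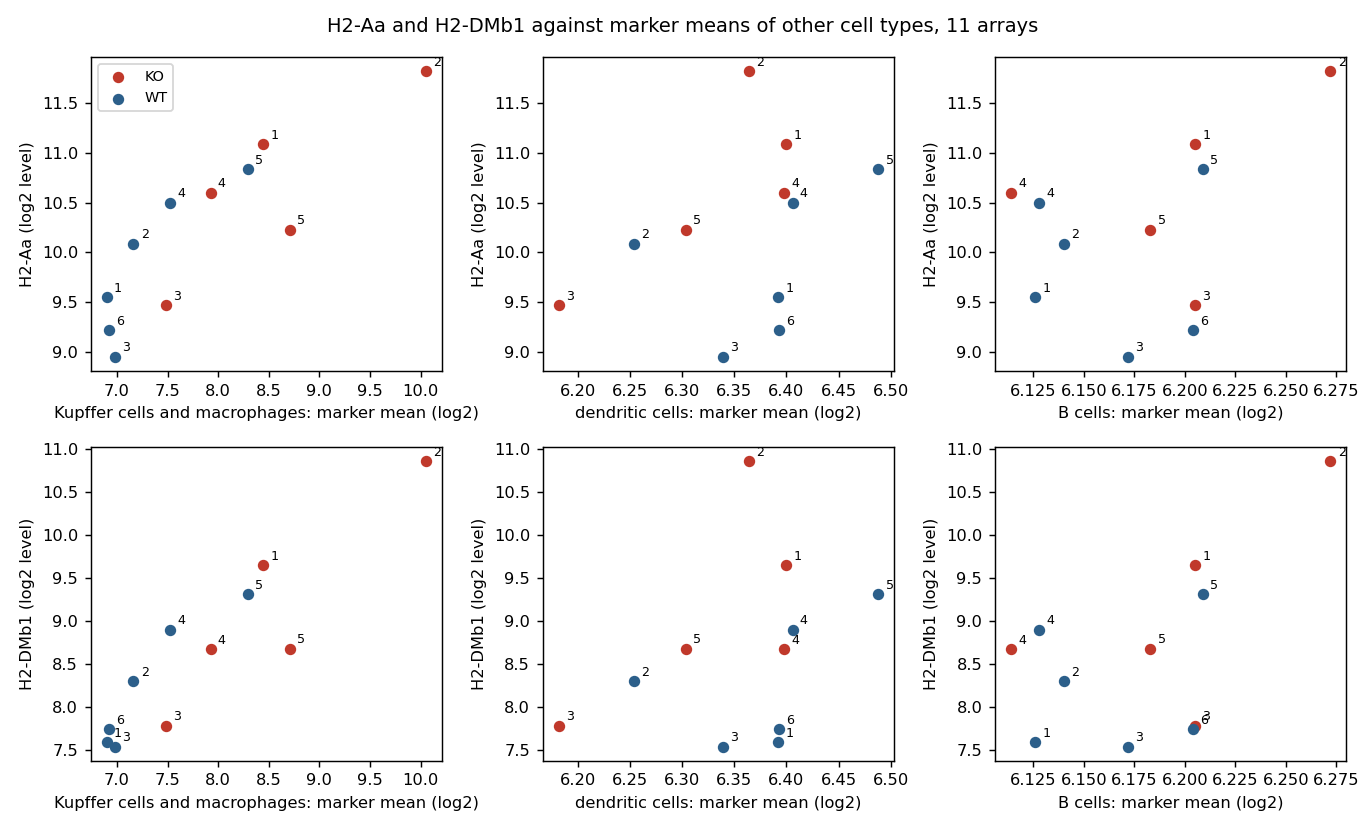
Log2 level of H2-Aa (top) and H2-DMb1 (bottom) against the mean of the macrophage, dendritic cell and B cell markers (log2), 1 point per array, with KO in red and WT in blue. KO array 2 and WT array 5 carry both the highest macrophage mean and the highest class II level of their groups, and the B cell means span only 6.11 to 6.27.

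The genes whose pattern was most like that of the classical chains were found by Pearson r over the 11 arrays to the mean of H2-Aa, H2-Ab1 and H2-Eb1, among 19497 other symbols. They were the kinase Syk (r = 0.97), the lysosomal membrane protein Laptm5 of blood cells (0.96), the leukocyte glycopeptide Cd52 (0.96), the TNF-induced gene Tnfaip2 (0.96), the acid phosphatase Acp5 (0.95), the chemokine Ccl6 (0.95), the proteoglycan Sdc4 (0.95) and Ifi30 (0.95). For comparison H2-DMb1 had r = 0.97, H2-DMa 0.96, Ciita 0.84, H2-Ob 0.82 and H2-Oa 0.66. Of the 8 genes most alike, 3 were higher by the study's rule, against 0.671% of all clusters. Group means were not subtracted for this r, so the genotype difference entered the choice and the count is a description only. Acp5 differed by 1.08 (SE 0.41), Ifi30 by the value above and Tnfaip2 by 0.71 (SE 0.26). Without KO array 2 neither Acp5 (0.785) nor Tnfaip2 (0.55) met it. The others differed by 0.28 (SE 0.24) for Sdc4, 0.46 (SE 0.21) for Syk, 0.75 (SE 0.43) for Laptm5, 0.80 (SE 0.42) for Ccl6 and 0.85 (SE 0.48) for Cd52.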

How the data were processed

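Total RNA was extracted with Trizol and labelled from 100 ng, 1 array per sample, per the labels' protocols. For the log2 values deposited by the authors, the submitters' processing notes name Affymetrix Expression Console and RMA without versions. RMA in general subtracts background, equalises the distribution of arrays and summarises probes. The log2 scale was read from the range, 2.15 to 13.79. Such processing compresses weak signals and removes changes shared by most genes. Groups follow the titles. They call the replicates biological without saying whether each is 1 animal or a pool, and p-values measure the spread between such replicates.

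Of the rows, 22206 clusters were tested and 6640 control rows left out. The platform annotation named 19572 clusters by 1 symbol, and 2634 were unnamed. Where a symbol had several clusters the brightest was used. The KO minus WT contrast was fitted in limma 3.58.1 under R 4.3.3 (genotype only, all 11 arrays, Benjamini-Hochberg over all clusters) and single genes were also tested by exact permutation, two-sided, over 462 splits. The limma fit was tested on simulated data. Correlations of members with each other and with marker or intron control means were computed on deviations from group means, with exact permutation within groups (86400 orders). For the genes most like the classical chains, r used the log2 values without subtraction of group means and was not tested. Some listed genes were not analysed here.

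The members and lists were chosen with earlier results of these data known. Named were the members, Atg5, Cdh5, up to 4 genes of smallest p per pathway list, up to 3 per marker list, and the 8 symbols most like the classical chains. Same-numbered arrays did not deviate together (correlations from -0.32 to 0.39), so numbers were treated as names. Alternatives left out arrays, changed normalization, weights, variance model, filter and threshold, and added covariates. The split by intron controls (at 5.5) and leaving out KO array 2 with WT array 5 were added after seeing the data.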

Additional observations from a re-analysis of the deposited data

How the results depend on the processing

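The number of arrays limits precision, and H2-Oa, H2-Ob and Ciita lie near background. Over 25 alternatives per gene, 25 of 200 values of the members newly met the study's rule, counted below by setting beside all clusters. The lowest limma adjusted p was 0.226, and 192 of the 200 values kept their direction. The 8 that turned were 7 members with the macrophage mean as a covariate (-0.301 for H2-Aa, -0.407 for H2-Ab1, -0.46 for H2-Eb1, -0.50 for H2-DMa, -0.511 for H2-DMb1, -0.079 for H2-Ob and -0.046 for Ciita) and H2-Oa without KO array 3 (0.058). Each array left out moved H2-Aa between 0.49 and 1.08, H2-Ab1 0.47 to 1.17, H2-Eb1 0.34 to 0.95, H2-DMa 0.42 to 1.09, H2-DMb1 0.47 to 1.24, H2-Oa -0.31 to 0.06, H2-Ob 0.10 to 0.24 and Ciita 0.14 to 0.30. The cause of these shifts was not tested.

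Members called higher were 0 to 5 with each array left out, against 111 to 245 of all 22206 clusters. They were 5 with the dendritic cell mean (1.14% of all clusters) and 5 with the intron control mean (0.878%) as a covariate. With the intron class as a block they were 4, against 186 of all 22206 clusters. In the low and the high intron arrays alone they were 1 each, against 1.14% and 0.671% of all clusters. Members called lower were 1 with the macrophage mean, against 2.31% of all clusters, and 0 with each array left out, against 37 to 138 clusters. With the replicate number as a block, 0 members were called (H2-Aa 0.66, H2-DMb1 0.80), against 158 of all clusters higher and 92 lower. In this fit Ctss (0.90), Spi1 (0.68) and Cd83 (0.54) no longer met the rule. This fit leaves WT array 6, which has no partner, out of the difference. With array weights the 4 pathway calls were lost (Ctss 0.69, Ifi30 0.69, Spi1 0.52 and Cd83 0.39). The B cell mean as a covariate also removed all 4 (0.76, 0.76, 0.59 and 0.47). Quantile normalization again removed Ifi30 (0.91) and Cd83 (0.54) but kept Ctss and Spi1, and median centring kept all 4. Array weights put the 5 chain and chaperone genes at 0.36 to 0.51.

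Of all clusters, 149 were called higher and 79 lower. With each array left out these counts were 111 to 245 (224 without WT array 5, 245 without KO array 3) and 37 to 138 (50 and 37 without WT arrays 4 and 5, and 48, 138, 40 and 38 without KO arrays 1, 2, 4 and 5). Array weights gave 99 and 146, the macrophage mean 1212 and 514, the B cell mean 141 lower, the dendritic cell mean 253 and 41, a fold of at least 2 gave 46 and 14, the low intron arrays 254 higher and the high intron arrays 136 lower. Clusters past the adjusted p were 0, against 24 with the macrophage mean, 17 with the dendritic cell mean, 1 without KO array 2 and WT array 5, and 0 to 1 with each array left out (1 without WT array 5).

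Among the other named genes, the macrophage mean turned H2-DMb2 (-0.45), Syk (-0.10), Laptm5 (-0.43), Cd52 (-0.50), Acp5 (-0.093), Ccl6 (-0.46) and Sdc4 (-0.29) besides Ctss (-0.18), Ifi30 (-0.28), Spi1 (-0.12) and Cd83 (-0.12). H2-DMb2 was -0.23 in the high intron arrays. Cdh5 was -0.043 in the low intron arrays and -0.023 to 0.06 with each array left out. Each member had 1 cluster, so averaging clusters gave no further value.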
